A study of Homo sapiens with 3 samples.

Results

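The E2F transcription factors and the pocket proteins that bind them were described across 3 poly(A) RNA-seq libraries of 5637 cells, an established human bladder cancer line. The members were chosen by name: E2F1, E2F2, E2F3, E2F4, E2F5, E2F7, E2F8, RB1, RBL1 and RBL2, which are 10 of the 35851 genes in the deposited table, and each had 1 row there. All cells carried the genotype given as WT, were grown in RPMI 1640 with fetal bovine serum and were transfected with siRNA using Lipofectamine 3000. The study asked which genes depend on MYBL2, a MYB family transcription factor of proliferating cells. The control arm was 1 library from cells that received a control siRNA (siNC), and the knockdown arm was 2 libraries, siMYBL2-1 and siMYBL2-2, from cells that received MYBL2 siRNA. The labels give neither the time after transfection nor whether the endings -1 and -2 mean different siRNA sequences or repeats of 1 sequence. They do not tie the libraries to separate cultures either. Each p-value rests on the spread of the siMYBL2 pair, moderated with that of all genes, and takes siNC to vary alike. That spread may be technical, or may include a difference between siRNA sequences.

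E2F factors bind DNA with a DP partner, or as a pair of E2F subunits in the atypical members, and control the genes that carry a cell from G1 into S phase. RB1 holds the activating factors E2F1, E2F2 and E2F3 silent until cyclin-dependent kinases phosphorylate it, while RBL1 (p107) and RBL2 (p130) mainly bind E2F4 and E2F5 and repress the same genes in resting cells. RBL1 and RBL2 with E2F4 or E2F5 join the MuvB core to form the DREAM repressor. In cycling cells the same core binds MYBL2 instead. Loss of RB1 and gain of the region of chromosome 6 that holds E2F3 are both well known in bladder cancer, and the 5637 line is known to lack functional RB1 protein and to carry that gain.

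E2F factors are known to bind the promoters of E2F genes themselves, so the letters upstream of the members' starts were read from RefSeq (GRCh38.p14). Of the 10 members, 8 matched a promoter entry that was used, with 10 entries of 250 bases before to 50 bases after a start, and E2F5 and E2F8 are not shown. The E2F motif was searched on both strands as the words TTTCCCGC, TTTCCCGG, TTTCGCGC, TTTCGCGG, TTTGCCGC, TTTGCCGG, TTTGGCGC and TTTGGCGG. It was found in 4 of the 10 entries, 1 each of E2F1, E2F2, E2F3 and RBL1, against 6.19% of all 35116 promoters of the same length. The 120 bases just before these starts are printed 5′ to 3′ on the gene's strand, with every match in capitals, because they show where the matches lie in each.
E2F1, chr20:33686386-33686505, minus strand: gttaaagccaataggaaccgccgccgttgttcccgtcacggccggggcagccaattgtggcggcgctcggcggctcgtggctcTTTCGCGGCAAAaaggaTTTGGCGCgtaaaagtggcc
E2F2, chr1:23531234-23531353, minus strand: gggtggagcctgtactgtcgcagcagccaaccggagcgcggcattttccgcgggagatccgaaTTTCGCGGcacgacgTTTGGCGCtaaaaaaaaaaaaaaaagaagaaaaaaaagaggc
E2F3, chr6:20401759-20401878, plus strand: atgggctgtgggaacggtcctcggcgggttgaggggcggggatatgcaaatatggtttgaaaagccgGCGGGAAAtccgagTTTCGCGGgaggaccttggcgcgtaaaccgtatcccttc
RBL1, chr20:37095998-37096117, minus strand: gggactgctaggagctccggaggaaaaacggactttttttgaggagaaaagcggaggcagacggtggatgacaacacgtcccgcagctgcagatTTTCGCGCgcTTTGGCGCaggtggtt

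In the E2F1 promoter 3 matches were found, of which TTTCGCGG and TTTGCCGC, the latter on the opposite strand, overlap. E2F2, the first start of E2F3 and RBL1 held 2 matches each. Matches lay between positions -57 and -9 in all 4, counted from the start with the last printed base as -1. The entries of E2F4, E2F7 and RBL2, the second start of E2F3 and the entry of MYBL2 held none, and the RB1 entry begins inside the gene and so does not describe its main promoter. A MYB motif (CAACNG or TAACNG, both strands) was found in 5 of the 10 entries against 46.2% of all promoters, and CCAAT in 4 of 10 against 34.6%. The cell cycle element searched as TTTGAA or TTCGAA was in 2 of 10 against 16.4%. These are matches of letters only, and no match says only that these letters are not in the window.

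Reads recovered from the deposited RPKM values (assigned reads scaled to library total and exon length) totalled 40259436 for siNC, 41818861 for siMYBL2-1 and 46177658 for siMYBL2-2. MYBL2 itself stood at 211 RPKM in siNC, 46.0 in siMYBL2-1 and 56.3 in siMYBL2-2, which was 4.59-fold and 3.75-fold lower, with 95% counting intervals of 4.45 to 4.73 and 3.65 to 3.85. Its limma log2 change was -2.03 (SE 0.30, n = 2 against 1), with an adjusted p of 0.153. All 7 epithelial marker genes were detected in every library, at 8.98 to 949 RPKM. Their sum was 2159, 2459 and 1889 RPKM in siNC, siMYBL2-1 and siMYBL2-2, while 6 markers of leukocytes, fibroblasts and endothelium summed to 1.53, 2.08 and 1.40 RPKM. Most of that smaller sum was the fibroblast marker COL1A1, at 1.43, 2.03 and 1.31 RPKM.

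Tests used limma on log2(RPKM + 1) over the 13274 genes whose mean reached 1 RPKM, where a log2 change understates the change of low genes. Of the 10 members, 8 passed that filter, and E2F2 and RB1 did not. No member passed an adjusted p of 0.05 in either direction. Over all tested genes the share called was 0.00753 percent higher and 0 percent lower. The limma adjusted p of the 8 tested members lay between 0.999 and 1.00, and none had an unadjusted p under 0.05, the smallest being 0.124 for RBL2. A permutation of 1 library against 2 cannot give an exact p below 0.333. Counts of direction therefore describe these 3 libraries: 5 members (E2F1, E2F2, E2F7, RBL1 and RBL2) were lower than siNC in both siMYBL2 libraries, where 36.4 percent of all tested genes were. E2F3, E2F4, E2F5 and RB1 were higher in both, 4 of 10, where 29.7 percent of all tested genes were, and E2F8 went opposite ways. Those shares are over genes that passed the filter, and of the 8 members that did so, 4 were lower in both and 3 higher in both. With median-ratio scaling the members' counts were again 5 and 4, while over all tested genes 4357 were lower and 4399 higher in both, against 4834 and 3938 without it. Both ratios share the single siNC library. In these bulk libraries fewer cells in a cell cycle phase and less RNA per cell cannot be told apart.

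**Figure D1:**
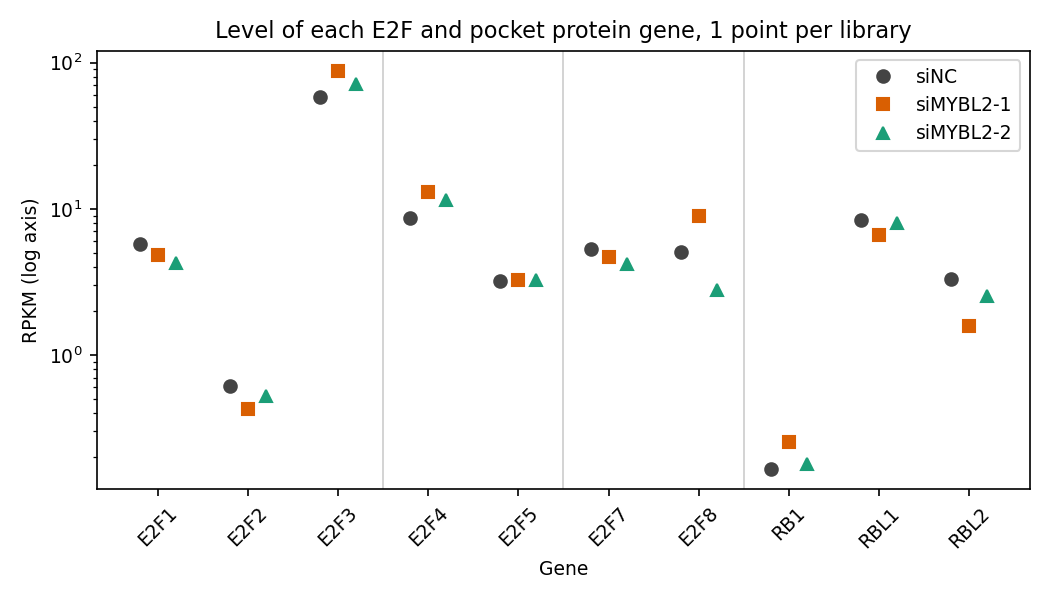
RPKM of the 10 members in siNC, siMYBL2-1 and siMYBL2-2, on a log axis, with 1 point per library and no error bar since each point is 1 library. E2F3 stood at 58.6 to 88.3 RPKM, above every other member, and RB1 at 0.165 to 0.252, below every other member.

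The levels of the members spanned a wide range, with E2F3 and E2F4 highest and E2F2 and RB1 lowest in every library. In siNC, per length, it ran E2F3, E2F4, RBL1, E2F1, E2F7, E2F8, RBL2, E2F5, E2F2 and RB1. The plot of levels by library shows E2F3 and RB1 apart from the rest. The ranges over 3 libraries did not overlap between E2F3 and E2F4, E2F4 and RBL1, RBL1 and E2F1, E2F5 and E2F2, or E2F2 and RB1. Neighbours in the middle of the order overlapped: E2F1 with E2F7, E2F7 with E2F8, E2F8 with RBL2 and RBL2 with E2F5. E2F7 was above E2F8 in 2 of 3 libraries, and RBL2 above E2F5 in 1 of 3. E2F8 varied most in its place: at 8.90 RPKM in siMYBL2-1 it stood above RBL1 and E2F1, and at 2.79 in siMYBL2-2 below E2F5.

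Of the activating factors, E2F3 was the abundant one and went the other way from E2F1 and E2F2. E2F3 (chr6:20401906-20493715, plus strand, hg38) was at 58.6 RPKM in siNC, 88.3 in siMYBL2-1 and 71.5 in siMYBL2-2, from 12193, 19058 and 17055 reads. Both siMYBL2 libraries were above siNC, and E2F3 was higher than at least 94.1% of tested genes in every library. The mean of the siMYBL2 pair was 79.9 ± 11.8 RPKM (SD, n = 2). The siMYBL2-1 library was at 1.50-fold (95% counting interval 1.47 to 1.54) and siMYBL2-2 at 1.22-fold (1.19 to 1.25) the siNC level. These intervals cover counting error only. The limma log2 change was 0.43 (SE 0.30, 95% interval -0.23 to 1.10, adjusted p = 0.999), and the siMYBL2 libraries differed from each other by 0.30 on the same scale.

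E2F1 (chr20:33675683-33686404, minus strand), the factor that also drives cell death genes, was at 5.76 RPKM in siNC, 4.81 in siMYBL2-1 and 4.28 in siMYBL2-2. Both siMYBL2 libraries lay below siNC, at 0.835 (0.739 to 0.942) and 0.744 (0.659 to 0.840) of it, from 580, 503 and 495 reads. The limma log2 change was -0.29 (SE 0.29, adjusted p = 0.999). E2F2 (chr1:23506430-23531220, minus strand), an activating factor close to E2F1 in function, had 0.614 RPKM in siNC against 0.425 and 0.520 with MYBL2 siRNA, from 135, 97 and 131 reads. It was lower in both, with a counting interval that reached 1 in siMYBL2-2 (ratio 0.846, 0.660 to 1.08) and not in siMYBL2-1 (0.692, 0.527 to 0.905).

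Within each library, where scaling between libraries plays no part, the ratio of E2F3 to E2F1 per length was 10.2 (9.37 to 11.1) in siNC, 18.4 (16.8 to 20.1) in siMYBL2-1 and 16.7 (15.3 to 18.3) in siMYBL2-2. Both siMYBL2 libraries were above siNC beyond counting error, and the spread between libraries of this ratio was not tested.

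The pocket-dependent repressing factors differed from each other. E2F4 (chr16:67192169-67198918, plus strand), the main E2F of the DREAM complex, was at 8.61 RPKM in siNC, 13.0 in siMYBL2-1 and 11.6 in siMYBL2-2, from 1242, 1950 and 1914 reads. Both siMYBL2 libraries were higher, at 1.51-fold (1.41 to 1.62) and 1.34-fold (1.25 to 1.44), and the pair averaged 12.3 ± 1.02 RPKM (SD, n = 2). The limma log2 change was 0.47 (SE 0.29, 95% interval -0.17 to 1.11, adjusted p = 0.999). E2F5 (chr8:85177225-85217158, plus strand) was nearly level, with 3.20 RPKM in siNC against 3.28 and 3.24 with MYBL2 siRNA, and with counting intervals that reached 1 in both (1.03, 0.928 to 1.13, and 1.01, 0.918 to 1.12). Its limma log2 change was 0.02 (95% interval -0.60 to 0.65), an interval that holds changes in either direction. Only 81.4% of its exonic bases are its own, since C8orf59 and RP11-219B4.3 overlap it on the other strand, and no source used here gives the counting strand. The ratio of E2F4 to E2F5 was 2.69, 3.97 and 3.58 in the same order.

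**Figure D2:**
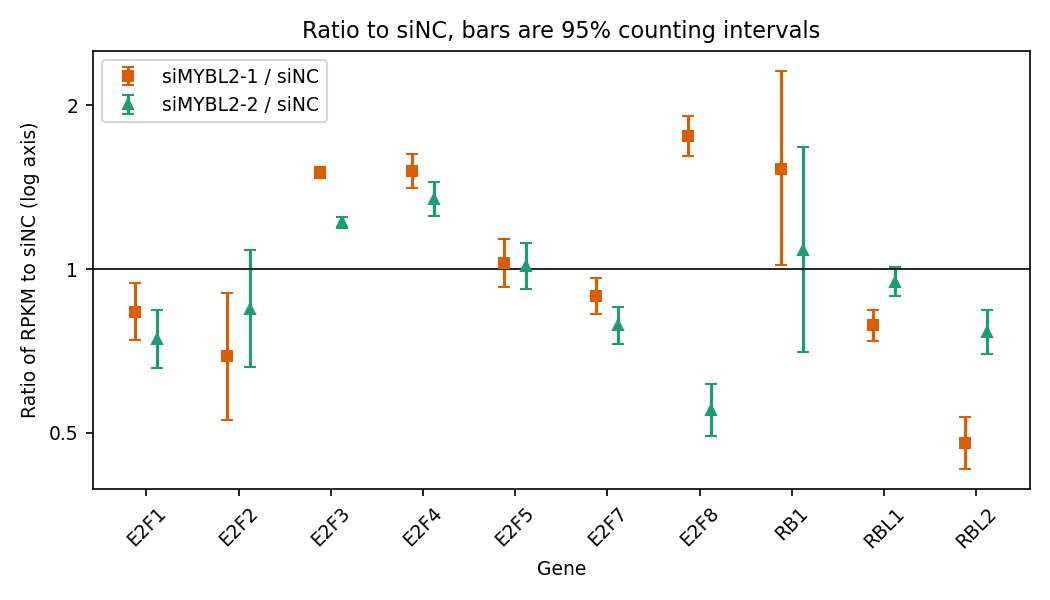
Ratio of each siMYBL2 library to siNC for the 10 members, with 95% exact counting intervals from recovered reads, on a log axis, 1 point per siMYBL2 library. E2F3 and E2F4 lie above 1 in both, E2F1, E2F7 and RBL2 below 1 in both, and the 2 E2F8 points lie on opposite sides of 1.

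E2F8 was the member in which the siMYBL2 libraries disagreed most. E2F7 and E2F8 are atypical factors that need no DP partner and repress E2F targets, with E2F1 among them, late in S phase. E2F8 (chr11:19224063-19241620, minus strand) was at 5.06 RPKM in siNC, 8.90 in siMYBL2-1 and 2.79 in siMYBL2-2, from 844, 1540 and 533 reads. The siMYBL2-1 library was 1.76-fold (1.61 to 1.91) above siNC and siMYBL2-2 was 1.82-fold (1.63 to 2.03) below it, and the plot of ratios to siNC shows both points away from 1 by more than counting error. Between the siMYBL2 libraries E2F8 differed 3.19-fold (2.89 to 3.53), a difference larger than in 99.1% of tested genes. The limma log2 change was 0.01 with an SE of 0.47 (95% interval -1.03 to 1.06, adjusted p = 1.00). CDKN1A, the p53-induced kinase inhibitor, chosen after its values were seen, differed between the pair in the same direction, at 18.7 against 6.38 RPKM with 10.6 in siNC.

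E2F7 (chr12:77021247-77065580, minus strand) was at 5.28 RPKM in siNC, 4.72 in siMYBL2-1 and 4.17 in siMYBL2-2, from 1341, 1243 and 1213 reads. Both were below siNC, at 0.892 (0.825 to 0.965) and 0.789 (0.729 to 0.853), and the limma log2 change was -0.21 (SE 0.29, adjusted p = 0.999). The ratio of E2F8 to E2F7 per length was 0.958 in siNC, 1.89 in siMYBL2-1 and 0.669 in siMYBL2-2, so the siMYBL2 libraries lay on either side of siNC.

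**Figure D3:**
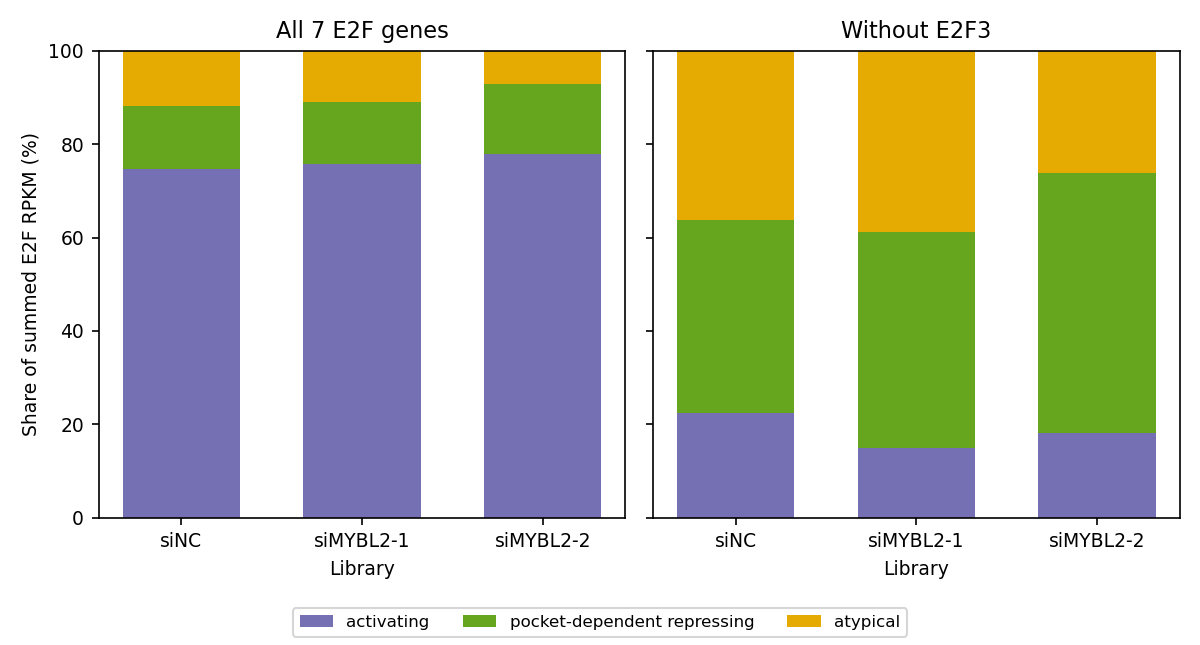
Share of the summed E2F RPKM in activating (E2F1, E2F2, E2F3), pocket-dependent repressing (E2F4, E2F5) and atypical (E2F7, E2F8) genes, 1 bar per library, with all 7 E2F genes and without E2F3. Activating factors take 74.6% to 77.8% of the sum with E2F3 and 14.9% to 22.3% without it.

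The summed level of the 7 E2F genes was 87.2 RPKM in siNC, 123 in siMYBL2-1 and 98.1 in siMYBL2-2. E2F3 alone made up 67.3%, 71.5% and 72.9% of it. Activating factors took 74.6%, 75.8% and 77.8%, repressing factors 13.5%, 13.2% and 15.1%, and atypical factors 11.9%, 11.0% and 7.09% of the sum in that order. The share of the activating factors depended on E2F3, as the bars without it show. Without E2F3 it was 22.3% in siNC, 14.9% in siMYBL2-1 and 18.1% in siMYBL2-2, lower in both siMYBL2 libraries where the share with E2F3 was higher in both. The repressing factors then took 41.4%, 46.4% and 55.7%, and the atypical factors 36.3%, 38.7% and 26.2%. In RPKM the repressing factors summed to 11.8, 16.3 and 14.8, so their larger share in siMYBL2-2 than in siMYBL2-1 was not a higher level. These shares were not tested.

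Among the pocket proteins, RB1 was barely detected and RBL1 was the most abundant. RB1 (chr13:48303751-48481986, plus strand in the table, while GENCODE 29 extends the gene to 48599436) was at 0.165 RPKM in siNC, 0.252 in siMYBL2-1 and 0.179 in siMYBL2-2. That is 41, 65 and 51 reads on 28 merged exons of 6169 bases, none of which another row overlaps. RB1 was higher in both siMYBL2 libraries, at 1.53 (1.02 to 2.31) and 1.08 (0.705 to 1.68) of siNC, and the second interval held 1, so no difference beyond counting error was seen in siMYBL2-2. RB1 made up 1.39%, 2.97% and 1.68% of the summed pocket protein RPKM.

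RBL2 had the lowest mean log2 ratio to siNC of the members. RBL2 (chr16:53433977-53491649, plus strand), which encodes p130, the pocket protein of resting cells, was at 3.32 RPKM in siNC, 1.59 in siMYBL2-1 and 2.54 in siMYBL2-2, from 979, 487 and 859 reads. It was 2.09-fold (1.87 to 2.33) and 1.31-fold (1.19 to 1.43) lower, so the size of the difference varied between the siMYBL2 libraries. The limma log2 change was -0.51 (SE 0.31, 95% interval -1.19 to 0.17, adjusted p = 0.999). Of its exonic bases 81.8% are its own, and the overlapping rows on the other strand were AKTIP, at 1.39, 1.08 and 1.49 RPKM, and RP11-44F14.7, at 2.60, 1.24 and 1.92 RPKM. The part of reads from the other strand in the RBL2 values was not tested.

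RBL1 (chr20:36996349-37095995, minus strand), which encodes p107, the pocket protein of cycling cells and itself an E2F target, was at 8.40 RPKM in siNC, 6.63 in siMYBL2-1 and 7.97 in siMYBL2-2, from 2013, 1650 and 2190 reads. Both were below siNC, at 0.789 (0.739 to 0.843) and 0.948 (0.892 to 1.01), and the interval reached 1 in siMYBL2-2. The difference between the siMYBL2 libraries was larger than their mean difference from siNC, and the limma log2 change was -0.18 (SE 0.29, adjusted p = 0.999). The ratio of RBL1 to RBL2 per length was 2.53 (2.34 to 2.73) in siNC, 4.17 (3.76 to 4.62) in siMYBL2-1 and 3.13 (2.90 to 3.40) in siMYBL2-2, above siNC in both beyond counting error. Of the exonic bases of RBL1 96.5% are its own, and RP4-621N11.2, which overlaps it on the other strand, was at 11.9, 9.14 and 11.0 RPKM.

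**Figure D4:**
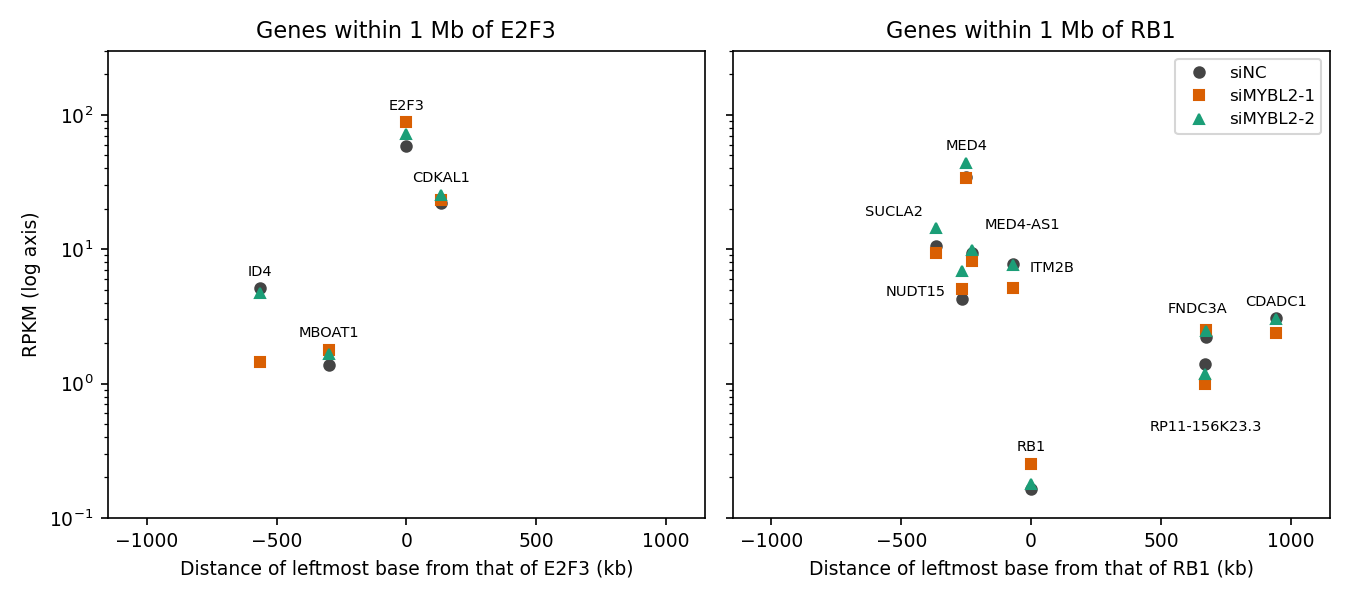
RPKM, on a log axis, of rows averaging 1 RPKM or more within 1 megabase of E2F3 and of RB1, plotted by distance in kilobases between leftmost bases, with 1 point per library and RB1 added although it lies below that level. E2F3 lies above its plotted neighbours. RB1 lies below those plotted around it, which were kept only at 1 RPKM or more.

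The genes around E2F3 and RB1 place their levels in context. Within 1 megabase of E2F3, 3 other rows averaged 1 RPKM or more. CDKAL1, a tRNA-modifying enzyme gene next to E2F3, had RPKM values of 22.0, 23.1 and 25.3, given as here in the order siNC, siMYBL2-1, siMYBL2-2. MBOAT1, a phospholipid acyltransferase gene, was at 1.38, 1.79 and 1.67 RPKM, and ID4, an inhibitor of DNA binding, at 5.13, 1.45 and 4.75 RPKM. E2F3 stood above each of these 3 in every library. Farther off on chromosome 6, SOX4 was at 62.6, 65.7 and 58.8 RPKM and DEK at 190, 138 and 208. SOX4 was above E2F3 in siNC only, and DEK was above E2F3 in every library. These genes beyond 1 megabase were chosen after their values were seen. Around RB1, 8 rows reached that mean, from 0.999 RPKM for RP11-156K23.3 in siMYBL2-1 to 43.9 for MED4, a Mediator subunit gene, in siMYBL2-2. RB1 averaged less than 1 RPKM, so its place below these 8 rows largely follows from that cut. LPAR6, a receptor gene within the span of RB1, had 1, 9 and 0 reads, or 0.00571, 0.0495 and 0 RPKM. RCBTB2, just beyond the RB1 row, had 28, 17 and 45 reads, or 0.196, 0.115 and 0.275 RPKM. LPAR6 was below RB1 in every library, and RCBTB2 was above RB1 in siNC and siMYBL2-2 and below it in siMYBL2-1. Both genes were chosen after their values were seen.

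Genes with a pattern like the members' were named by the distance between pairs of log2 ratios over the 3 libraries. Nearest to RBL2 were HNRNPA3P4 (distance 0.015), a pseudogene whose reads may be shared with its parent gene, REL (0.019), an NF-kB subunit, and OLFML2A (0.021), with 105 genes within 0.1. Nearest to E2F4 were FLNC (0.0075), PXN (0.016) and TPM4 (0.016), genes of filamin C, paxillin and a tropomyosin, with 131 genes within 0.1. With 2 ratios to 1 shared library, many genes lie this close.

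**Figure D5:**
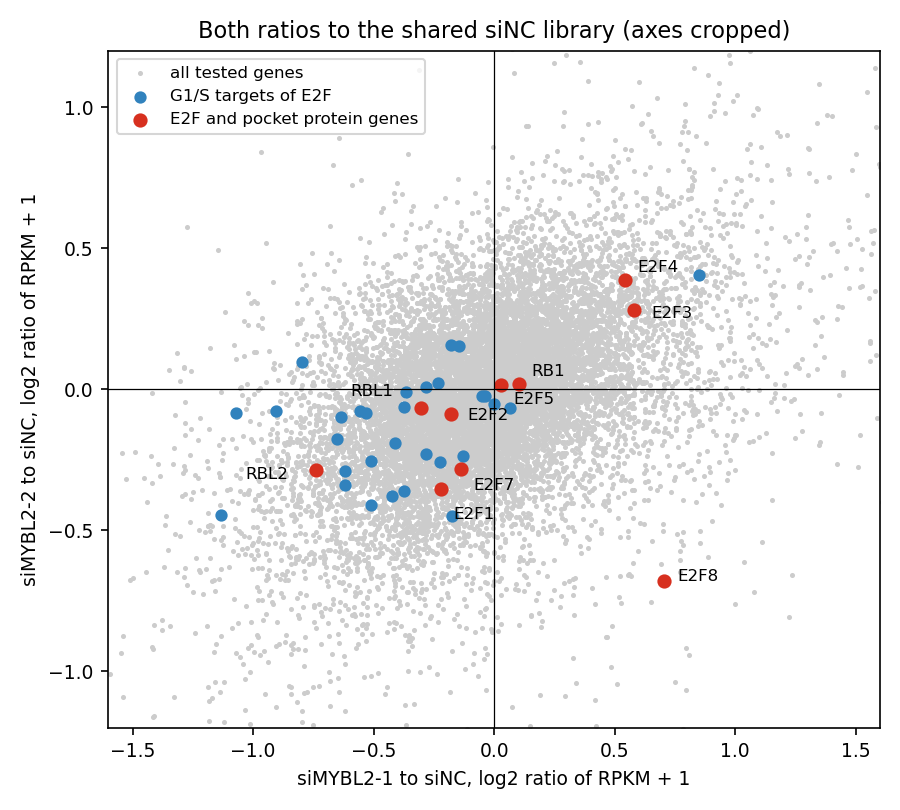
Log2 ratio of RPKM + 1 to siNC in siMYBL2-1 (x axis) and siMYBL2-2 (y axis) for all tested genes, the G1/S targets of E2F and the 10 members, with axes cropped and siNC shared by both. Of 30 G1/S targets 23 lie at the lower left, 1 in the upper right and 6 have opposite signs. That list was chosen with the lower values of replication genes in these data known.

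Partners and regulators of the members were described from lists by name, with 3 values always in the order siNC, siMYBL2-1, siMYBL2-2. No gene of these lists passed the limma test over all genes. Over all tested genes 36.4 percent were lower in both siMYBL2 libraries and 29.7 percent higher in both. No count of a list was tested against these shares. Of E2F6 and the DP partners, 3 genes were tested, and E2F6, a repressor that binds Polycomb proteins, was at 2.49, 2.92 and 2.65 RPKM, higher in both. TFDP1, the main DP subunit, was at 27.1, 32.4 and 26.9 RPKM. Of the 5 MuvB core genes 2 were lower in both and 2 higher in both, among them RBBP4, a histone-binding subunit, at 10.7, 7.75 and 9.33 RPKM, and LIN9, the subunit that joins MYBL2, at 2.84, 2.85 and 3.77 RPKM.

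Among the genes that control phosphorylation of the pocket proteins, CCND1 had the smallest unadjusted p of these lists. Of 6 tested G1 cyclin and kinase genes 3 were higher in both and 2 lower in both. Over all tested genes 29.7 percent were higher in both and 36.4 percent lower in both. CCND1, cyclin D1, was at 5.73 RPKM in siNC, 32.5 in siMYBL2-1 and 14.4 in siMYBL2-2. Both were above siNC, with a limma log2 change of 1.75 (SE 0.42, unadjusted p = 0.00179, adjusted p = 0.450). Of its exonic bases 89.7% are its own, with ORAOV1 overlapping on the other strand. CDK6, a kinase partner of cyclin D, was at 2.38, 4.96 and 3.95 RPKM, while CCNE2, cyclin E2, was at 21.3, 16.8 and 20.3 RPKM and CDK2, its kinase, at 34.7, 32.8 and 30.9 RPKM. Of 6 tested CDK inhibitor genes 3 were lower in both and 1 higher in both, against the same all-gene shares. CDKN2C (p18) was at 2.13, 0.541 and 1.12 RPKM and CDKN2D (p19) at 4.40, 2.21 and 2.16 RPKM, both inhibitors of the cyclin D kinases. Their limma log2 changes were -0.79 (SE 0.30, adjusted p = 0.934) and -0.76 (SE 0.28, adjusted p = 0.920). CDKN1B, the 1 inhibitor gene higher in both, was at 6.87, 7.30 and 7.84 RPKM, and 2 tested inhibitor genes went opposite ways.

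The G1/S targets of E2F, 30 genes mainly of DNA replication, nucleotide synthesis and repair with some of cell cycle control and chromatin, were mostly at lower values. All 30 were tested: 23 were lower in both siMYBL2 libraries, 1 was higher in both and 6 went opposite ways. Over all tested genes 36.4 percent were lower in both and 29.7 percent higher in both. The list was chosen with the lower values of replication genes in these data known, so its count only describes these libraries. Their log2 ratios had a median of -0.37 in the first and -0.08 in the second siMYBL2 library, beside -0.04 and -0.01 over all tested genes. With median-ratio scaling 19 were lower in both, beside 4357 of the 13274 tested genes. The plot of both ratios shows the spread of these genes along the siMYBL2-1 axis. MCM6, part of the MCM helicase that unwinds origins, stood at 22.4, 9.66 and 16.2 RPKM, with a limma log2 change of -0.79 (SE 0.34, unadjusted p = 0.0424, adjusted p = 0.999). TK1, thymidine kinase, was at 20.0, 9.01 and 18.9 RPKM, so siMYBL2-2 lay close to siNC. CDC25A, the phosphatase that activates CDK2, was the 1 gene higher in both, at 4.86, 9.56 and 6.75 RPKM. Of the members, E2F1, E2F2, E2F7, RBL1 and RBL2 were lower in both as well, while E2F3, E2F4, E2F5, RB1 and E2F8 were not.

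Of 6 tested apoptosis targets of E2F1, 4 were lower in both and 1 higher in both. Over all tested genes 36.4 percent were lower in both and 29.7 percent higher in both. TP73, a p53 family gene, was at 2.90, 1.44 and 2.37 RPKM, APAF1, the apoptosome scaffold, at 2.44, 1.44 and 1.77, and PMAIP1 (NOXA) at 23.1, 30.3 and 26.7. Of 8 corepressor genes whose products pocket proteins recruit, 5 were lower in both and 1 higher in both, against the same all-gene shares. KDM5A, a histone demethylase that binds RB1, was at 7.25, 5.23 and 6.66 RPKM, HDAC1, a histone deacetylase, at 34.3, 27.7 and 30.1, and SUV39H1, a histone methyltransferase, at 3.72, 4.15 and 3.95. Of the 3 ligase subunits that mark E2F proteins for degradation, CCNF (cyclin F) was at 2.47, 1.88 and 1.54 RPKM and FZR1 (CDH1 of the anaphase-promoting complex) at 5.71, 4.37 and 5.11, both lower in both, and SKP2 at 6.31, 5.99 and 9.63.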

How the data were processed

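Per the labels' protocols, poly(A) RNA was fragmented and the dUTP-marked second cDNA strand was removed before sequencing. Per the submitters' processing notes, cutadapt 1.9, HISAT2 2.0.4, StringTie 1.3.4d and hg38 were used. Counting tool, strand setting and annotation: not given in the sources used here. A table of RPKM values, with gene positions and exonic lengths, was deposited by the authors, per the file headers.

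RPKM times length gave whole reads within 0.001 reads for 100% of values, which gave each library's total. Counting intervals are exact (Clopper-Pearson) at 95% from these reads and cover counting error only, since the reads carry no molecular identifiers. Log2(RPKM + 1) was tested with limma 3.58.1 in R 4.3.3 (trend, two-sided, Benjamini-Hochberg over the 13274 genes averaging 1 RPKM or more, threshold 0.05). The siMYBL2 pair gives each gene 1 residual degree of freedom, which limma moderated with the spread over all genes to 10.2 in total, so a printed SE is mostly that of genes of like level. siNC, with 1 library, is taken to vary like the pair. Tested on simulated data with known changes, limma recovered few 2-fold changes and made more false calls than the threshold allows. That simulation gave all genes the same spread beyond counting, so its outcome depends on that setting and need not hold for these libraries. Alternatives were another pseudocount, other filters, median-ratio scaling, robust moderation, limma-voom on recovered reads and leaving out each siMYBL2 library. Gene overlaps were taken from the exon positions deposited with the RPKM values. The spans of the members and MYBL2 were checked in GENCODE 29, and promoter letters came from RefSeq GRCh38.p14.

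The members and the lists were chosen with earlier results of these data known, the lower values of replication genes among them. Beside the members and MYBL2, the genes named were, in each list, up to 2 with the highest and 2 with the lowest mean log2 ratio among genes with the same sign in both libraries, the 3 genes nearest in pattern to RBL2 and E2F4, and rows near E2F3. TFDP1, SKP2, SOX4, DEK and the rows near RB1 or overlapping a member were named after their values were seen.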

Additional observations from a re-analysis of the deposited data

How the results depend on the processing

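No member passed the limma test under any alternative, and the lowest adjusted p was 0.739, for E2F4 with no filter on low values. Over all genes the count called, 1 as reported, was 0 with no filter, 0 with a filter at a mean of 5 RPKM, 0 with median-ratio scaling, 0 with robust moderation and 10 with limma-voom on recovered reads. The cause was not tested. Of 70 alternative values of the members' log2 changes 67 kept their direction. The 3 that reversed were of E2F8: -0.019 with a pseudocount of 0.1 and -0.037 with limma-voom, and -0.68 to 0.71 over leaving out each siMYBL2 library. Many of the 70 could not reverse. Other filters and robust moderation leave a member's log2 change as it was. A member with the same sign in both siMYBL2 libraries keeps it when either is left out. With the filter at 5 RPKM only 4 members were left, of which 1 was lower and 2 higher in both. The activating share was 22.3%, 14.9% and 18.1% in siNC, siMYBL2-1 and siMYBL2-2 without E2F3, and 75.5%, 78.0% and 79.5% of recovered reads in the same order. Median-ratio scaling moved the median log2 ratio of all tested genes by 0.03. Leaving out a siMYBL2 library leaves no residual degrees of freedom, so the counts of calls have no such value, and the only siNC library could not be left out. No paired analysis was possible, with 1 siNC library and no label that pairs it with a siMYBL2 library. Depth limits RB1 and E2F2 most, with 41 to 135 reads a library.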
